A study of Homo sapiens with 4 samples.

Results

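CDK16 is a member of the PCTAIRE group of cyclin-dependent kinases (CDKs), and its level fell reproducibly after knockdown of the arginine methyltransferase PRMT3 in U251 glioblastoma (GBM) cells. It was described here with the related kinases CDK17, CDK18, CDK14 and CDK5 and with the cyclins CCNY and CCNYL1. These 7 genes were taken by name from a table of 15575 genes, and all 7 were among the 13172 genes with enough counts to be tested. CDK16 was picked because it fell by a similar amount in both knockdown libraries, so its change and the closeness of its libraries are given as a description with no test. The other 6 genes belong by sequence family or by binding to these kinases.

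U251 is an established human GBM cell line, grown here as 2 control (Ctrl) libraries and 2 PRMT3 knockdown (PRMT3-KD) libraries, and all the results rest on this 1 line. The Ctrl cells, with pGreen in their label, received a lentivirus with control shRNA, and the PRMT3-KD cells received a lentivirus with PRMT3 shRNA. RNA was profiled by RNA-seq at 72 h, and the hairpin used for these libraries is not given in the sources used here. Nothing states that the libraries of a group came from separate cultures, so p-values measure the spread between these libraries, which may be technical. Total counts were 24804250 to 29756313 per library. Levels are given as CPM, which are read counts scaled to the library total corrected by TMM, a factor for composition. PRMT3 was counted 535 times in each Ctrl library, but 77 and 45 times after knockdown. Of the markers listed for a glioma line, VIM, NES, CD44 and SOX2 were at 132 to 5399 CPM. GFAP and S100B, of the same list and also astrocyte markers, were only at 1.26 to 14.3 and 1.93 to 2.82 CPM. Of the markers of other cell types, PTPRC, MBP and MOG were at no more than 0.512 CPM, while CD68, CDH5 and SYT1 were detected. GFAP was lower in PRMT3-KD (1.26 and 5.39 CPM) than in Ctrl (13.1 and 14.3 CPM), and CD68 (24.0 and 25.6 against 29.6 and 29.7 CPM), SYT1 (10.03 and 11.1 against 14.3 and 14.0 CPM) and MBP (3 and 3 against 13 and 6 counts) were higher. In edgeR, the adjusted p was 0.0958 for GFAP, 0.114 for CD68 and 0.0754 for SYT1, all above 0.05, and MBP was not tested. VIM and SOX2 were also lower, and PTPRC and MOG higher, in both PRMT3-KD libraries. Groups did not overlap for 67.1% of all genes tested. CDH5 stood at 25.4 CPM in PRMT3-KD library 2 and at 5.05 to 5.31 CPM elsewhere, and the part of these markers in the results was not tested. OLIG2, AIF1, PECAM1 and RBFOX3 were not analysed here.

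CDKs are kinases that need a cyclin or another activator to take up their active shape. The PCTAIRE kinases CDK16, CDK17 and CDK18 are named after a motif in the helix that contacts the cyclin, and CDK14 carries the related PFTAIRE motif. CDK16 and CDK14 are activated by cyclin Y, which is held at the plasma membrane by a lipid anchor. CDK16 is known for roles in vesicle transport, neurite growth and sperm maturation, and CDK14 with cyclin Y phosphorylates the Wnt co-receptor LRP6. CDK5 is activated by CDK5R1 and CDK5R2, which are not cyclins, and is best known from neurons.

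CDK16 (ENSG00000102225) lies on the plus strand of chromosome X of GRCh37 (hg19), at chrX:47077259-47089396. In Ctrl it was counted 4802 and 4790 times, and after knockdown 1736 and 1961 times. On the CPM scale, Ctrl gave 173 and 174 while PRMT3-KD gave 68.3 and 69.0. Both PRMT3-KD libraries were far below both Ctrl libraries, and the 2 libraries of each group were nearly equal. The group levels were 174 ± 0.588 CPM for Ctrl against 68.7 ± 0.493 CPM for PRMT3-KD (SD, n = 2 each). CDK16 was thus 2.53-fold lower, with a log2 fold change of -1.34 (standard error 0.0679) from the edgeR fit. Each PRMT3-KD library on its own gave a log2 difference from the Ctrl mean of -1.35 and -1.33. By log2 fold change, CDK16 was number 161 from the largest fall among the 13172 genes, and by Ctrl level it was number 1130. A lower level in all cells and a loss in some of the cells cannot be told apart in bulk RNA.

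**Figure D1:**
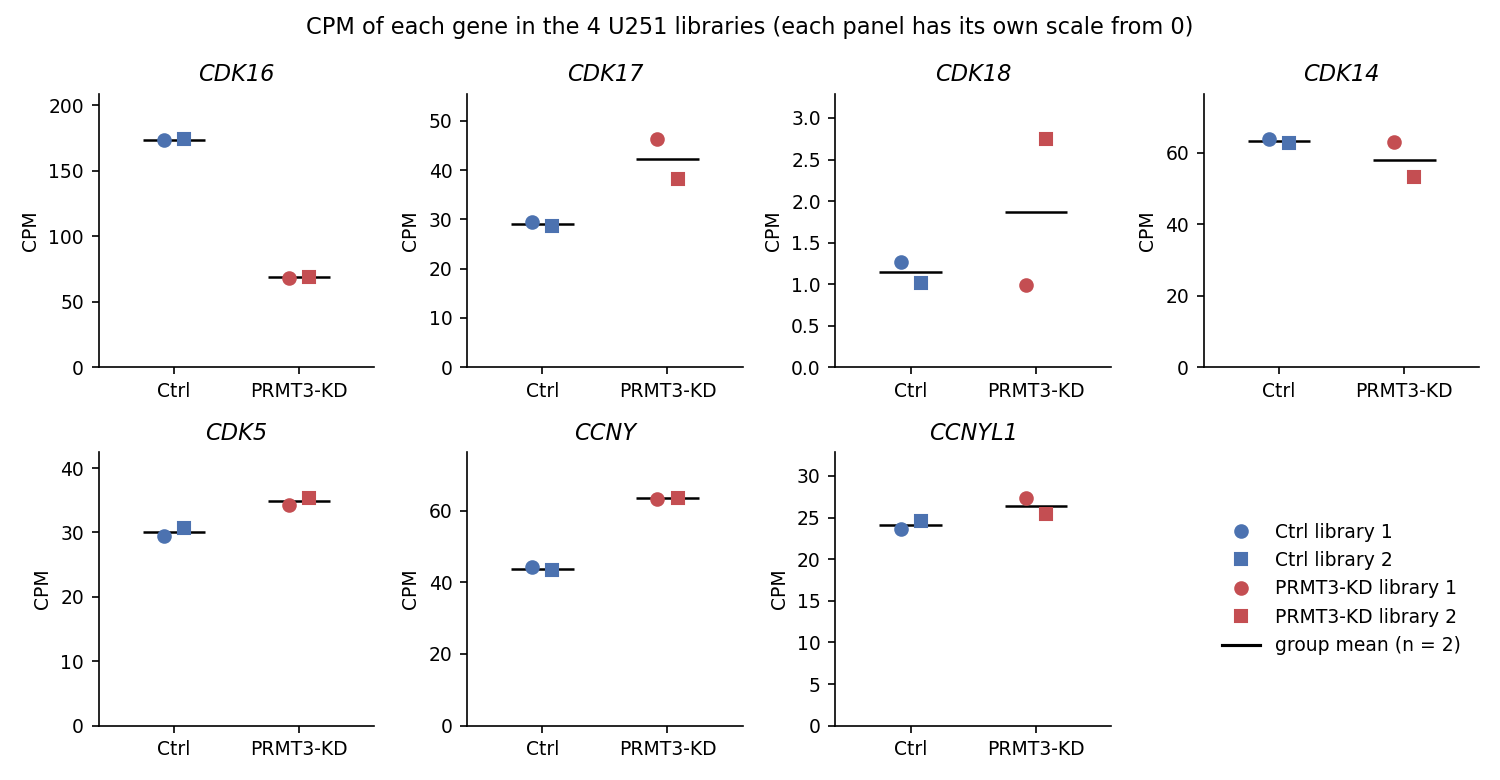
Level of each of the 7 genes in CPM (vertical axis, from 0, with its own scale in each panel) in the 2 Ctrl and 2 PRMT3-KD libraries, with each point a library and each line a group mean. CDK16 drops from 173 to 174 CPM in Ctrl to 68.3 to 69.0 CPM in PRMT3-KD, while CDK17 and CCNY are higher in both PRMT3-KD libraries and CDK18 differs mainly between the PRMT3-KD libraries.

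The relatives of CDK16 had log2 fold changes between -0.13 and 0.72. Across the table, 10.9% of the genes tested (4.97% as higher and 5.97% as lower) passed the call threshold, an adjusted p under 0.05 (quasi-likelihood test of edgeR, adjusted by Benjamini-Hochberg) together with more than a 1.5-fold change. Of the 6 genes other than CDK16, 0 passed both, 0 did so with DESeq2 and 0 with limma-voom with group weights, and 2 had an unadjusted p under 0.05 in edgeR. Their median log2 fold change was 0.37, beside 0.0055 for all genes tested, and 5 of the 6 were above 0. Levels did not overlap between the groups for 4 of the 6, all 4 of them higher in PRMT3-KD, against 67.1% of all genes tested (33.3% higher and 33.8% lower). With Ctrl library 1 or Ctrl library 2 left out, 0 genes of the whole table passed in edgeR, so each call given here rests on having both.

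CDK17, a PCTAIRE paralog, is on the minus strand at chr12:96672039-96794258. Its level was 29.5 and 28.6 CPM in Ctrl against 46.3 and 38.2 CPM after knockdown. Both PRMT3-KD libraries were above both Ctrl libraries, but they were further apart than the Ctrl libraries. The fitted log2 fold change was 0.54 (standard error 0.124, 95% interval 0.21 to 0.87), with an adjusted p of 0.0526 by edgeR, which missed the threshold. DESeq2 gave an adjusted p of 0.0177 and limma-voom with group weights 0.0241, with a change that stayed under 1.5-fold. Without PRMT3-KD library 2 the log2 fold change of CDK17 was 0.67, and without library 1 it was 0.40.

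CDK18, at chr1:205473724-205501921, was barely detected: Ctrl gave 35 and 28 counts, and PRMT3-KD gave 25 and 78. The groups overlapped, since PRMT3-KD library 1 lay below both Ctrl libraries and library 2 above them. The log2 fold change of 0.72 had a standard error of 0.553 and an adjusted p of 0.403 (edgeR). It was 1.27 without PRMT3-KD library 1, and -0.22 without library 2.

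In the PCTAIRE group, the relative amounts of the kinases changed with the loss of CDK16 transcript. Levels of different genes were compared as CPM per kilobase of annotated exon. Of the summed level of CDK16, CDK17 and CDK18, the Ctrl libraries had 84.8% and 85.4% as CDK16, and the PRMT3-KD libraries 58.9% and 62.6%. The share of CDK17 was 14.6% and 14.1% in Ctrl cells but 40.3% and 35.0% after knockdown. The summed level was 31.3 ± 0.0390 in Ctrl and 17.3 ± 0.631 in PRMT3-KD (SD, n = 2 each), or 55.4% of the Ctrl level, so the higher level of CDK17 was smaller than the decrease of CDK16. These shares follow in part from the choice of CDK16 and carry no test.

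CDK14, a kinase of the Wnt pathway, and CDK5 were the other kinases of the family. CDK14 (chr7:90095738-90839905) was at 63.8 and 62.7 CPM in Ctrl, compared with 62.9 and 53.1 CPM after knockdown, so that PRMT3-KD library 1 lay between the Ctrl libraries. Its log2 fold change was -0.13 (95% interval -0.41 to 0.16, adjusted p = 0.453, edgeR). Of its exon bases, 2.86% are shared with CLDN12 on the same strand. CDK5 (minus strand, chr7:150750902-150754984) was at 29.4 and 30.8 CPM in Ctrl, compared with 34.2 and 35.4 CPM after knockdown. The groups did not overlap, and the log2 fold change was 0.21 (95% interval -0.017 to 0.44, adjusted p = 0.155, edgeR). Pseudogenes of CDK5 and of the cyclin Y genes are annotated, and any reads shared with them, which were not measured, would make these counts less certain.

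CCNY is the cyclin that activates CDK16 and CDK14. It was the 1 gene of the 6 tested members with an adjusted p under 0.05 in the main edgeR fit. Of all genes tested, 17.3% had this (8.39% higher and 8.91% lower). CDK17 was also under 0.05 with DESeq2, with limma-voom with group weights and in edgeR with DESeq2 size factors (adjusted p = 0.0492). CCNY (chr10:35535953-35861597) was at 44.1 and 43.4 CPM in Ctrl and reached 63.3 and 63.6 CPM after knockdown. Both groups were tight and did not overlap. CCNY rose 1.45-fold (log2 fold change 0.53, standard error 0.0728, adjusted p = 0.0221, edgeR), so its change did not reach the 1.5-fold threshold. The other cyclin Y gene, CCNYL1 (chr2:208576264-208626563), was at 23.6 and 24.5 CPM in Ctrl, compared with 27.4 and 25.4 CPM after knockdown. Its log2 fold change of 0.13 (95% interval -0.12 to 0.39) had an adjusted p of 0.371 (edgeR). A noncoding gene on the other strand covers 12.0% of its exon bases, and a strand setting of the counting is not given in the sources used here. CCNY made up 58.4% ± 0.941 of the summed cyclin Y level per kilobase of exon in Ctrl and 65.0% ± 1.33 in PRMT3-KD (SD, n = 2 each). Per unit of CDK16, the summed cyclin Y level was 0.462 in Ctrl and 1.52 in PRMT3-KD, a ratio that contains the fall of CDK16 itself.

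**Figure D2:**
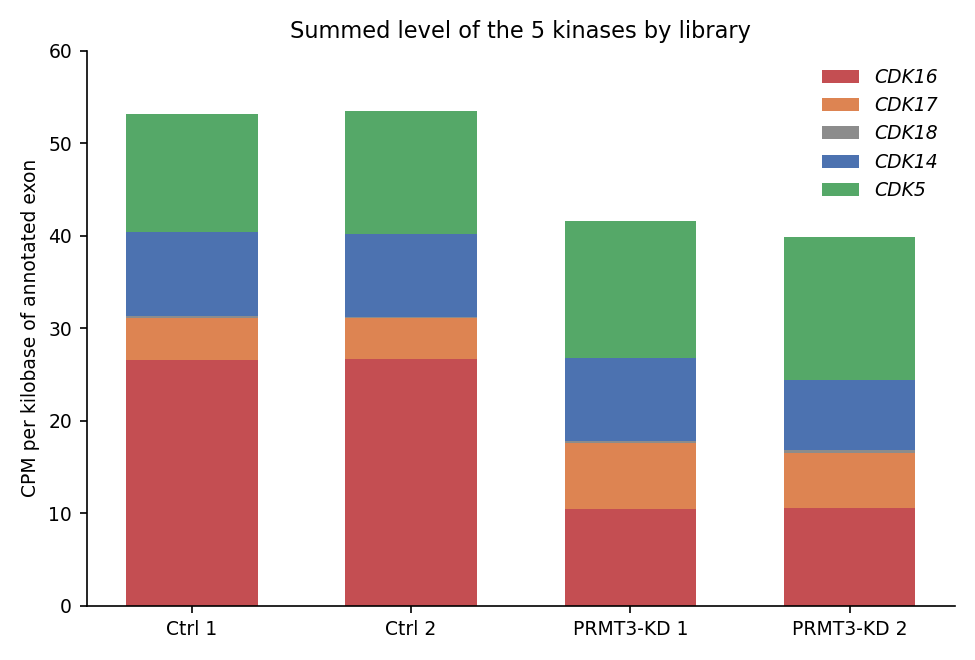
Stacked bars of the levels of CDK16, CDK17, CDK18, CDK14 and CDK5, in CPM per kilobase of annotated exon (vertical axis, from 0), for each of the 4 libraries. The sum is 53.1 and 53.5 in Ctrl and 41.6 and 39.8 in PRMT3-KD, and the CDK16 segment shrinks from 49.9% and 49.8% to 25.2% and 26.5% of it.

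In Ctrl cells, CDK16 was the most abundant of the 7 transcripts per kilobase of exon, at 26.6 ± 0.0900 CPM per kilobase (SD, n = 2). It was followed by CDK5 at 13.1 ± 0.423, CDK14 at 9.02 ± 0.114, CCNY at 7.17 ± 0.0805, CCNYL1 at 5.11 ± 0.141, CDK17 at 4.49 ± 0.104 and CDK18 at 0.167 ± 0.0254 CPM per kilobase. Each step in this order exceeded the spread between the Ctrl libraries. In PRMT3-KD cells, CDK5 came first with 15.1 ± 0.371 CPM per kilobase, and CDK16 at 10.5 ± 0.0755 and CCNY at 10.4 ± 0.0451 were close to each other (SD, n = 2 each). When the length of the canonical transcript was used instead, CDK16 was again first in Ctrl (55.1 CPM per kilobase) and below CDK5 in PRMT3-KD (21.8 against 31.0), but CCNY was then lower, at 12.5 CPM per kilobase, and CDK17 was above CCNYL1 in Ctrl.

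To place the family among other kinases of its kind, 21 other CDK and CDK-like genes were listed, of which 19 were tested and CDKL2 and CDKL4 were not analysed here. Of these, 1 passed the threshold as higher and 2 as lower (15.8%, against 10.9% of all genes tested), and their median log2 fold change was -0.20. CDK8, a kinase of the Mediator complex, rose from 17.8 and 18.6 to 30.5 and 26.4 CPM (log2 fold change 0.64, adjusted p = 0.0336, edgeR). It was not past the threshold with library totals only or without PRMT3-KD library 1, where its log2 fold change was 0.54. CDK3, a kinase linked to exit from quiescence, fell from 4.15 and 5.16 to 1.57 and 1.69 CPM (log2 fold change -1.51, adjusted p = 0.0246, edgeR), but its adjusted p was 0.0811 by limma-voom with group weights. CDKL1 fell from 50 and 47 counts to 17 and 22 counts (log2 fold change -1.28, adjusted p = 0.0424, edgeR, but 0.0986 by DESeq2, 0.144 by limma-voom with group weights and 0.0699 with the replicate block). CDK10, named after its values were seen, was at 69.9 and 69.2 CPM in Ctrl, compared with 51.1 and 37.2 CPM after knockdown. Its log2 fold change was -0.66 (adjusted p = 0.0644, edgeR). It passed the threshold as lower with DESeq2, with limma-voom with group weights and with the replicate block. The most abundant kinases of the list, CDK6, CDK1 and CDK4, which drive the cell cycle, were all under 1.5-fold. CDK6 had a log2 fold change of -0.27 (adjusted p = 0.0942, edgeR) and CDK4 of -0.26 (adjusted p = 0.204, edgeR). For CDK1 it was -0.53 (adjusted p = 0.0410, edgeR), and -0.66 without PRMT3-KD library 1.

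Activators and binding partners of the family were a further list of 18 genes, with 17 tested, 1 called as higher, 1 as lower (11.8%, against 10.9% of all genes tested) and a median log2 fold change of -0.12. CABLES1, an adaptor that links CDK5 to ABL kinase, rose from 12.6 and 11.8 to 25.7 and 25.7 CPM (log2 fold change 1.07, standard error 0.0988, adjusted p = 0.0158, edgeR). CCND3, a D-type cyclin that can bind CDK14, fell from 103 and 103 to 66.1 and 56.5 CPM (log2 fold change -0.75, standard error 0.102, adjusted p = 0.0223, edgeR). The abundant phosphoprotein-binding proteins YWHAZ and YWHAQ, of a group that binds CDK16 and cyclin Y, were at -0.43 (adjusted p = 0.0646, edgeR) and -0.12 (adjusted p = 0.401, edgeR) on the log2 fold change scale. CAPN2, a calpain subunit of the protease that cleaves the CDK5 activator, had a log2 fold change of 0.46 (adjusted p = 0.0389, edgeR), under 1.5-fold.

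Known or reported substrates of these kinases made up the last list of 14 genes, all tested, of which 3 were called as higher and 2 as lower (35.7%, against 10.9% of all genes tested), with a median log2 fold change of 0.20. The list was chosen with earlier results of these data known, and its share carries no test. DPYSL2, a regulator of axon growth that CDK5 phosphorylates, fell from 73.8 and 74.9 to 19.6 and 26.8 CPM (log2 fold change -1.68, adjusted p = 0.0172, edgeR). PRC1, which bundles microtubules in the spindle midzone, fell from 361 and 370 to 244 and 201 CPM (log2 fold change -0.72, adjusted p = 0.0283, edgeR). CDKN1B, an inhibitor of cell cycle CDKs, rose from 44.2 and 42.2 to 65.0 and 70.7 CPM (log2 fold change 0.65, adjusted p = 0.0212, edgeR). The Wnt co-receptor gene LRP5 (log2 fold change 0.78, adjusted p = 0.0249, edgeR) and the focal adhesion kinase gene PTK2 (0.62, adjusted p = 0.0357, edgeR) also rose. PTK2 did not pass with library totals only or without PRMT3-KD library 1, where its log2 fold change was 0.48. LRP6 was chosen after its values were seen, as the named target of CDK14 with cyclin Y. Its log2 fold change was 0.55 (adjusted p = 0.0263, edgeR), under 1.5-fold, and 0.61 without PRMT3-KD library 1. STMN1, a microtubule-destabilizing protein, had a log2 fold change of -0.53 (adjusted p = 0.0212, edgeR), also under 1.5-fold. MAP1B, a microtubule-associated protein, had 674 and 1211 CPM in the PRMT3-KD libraries on either side of its Ctrl levels of 916 and 918 CPM, and its log2 fold change of 0.039 (adjusted p = 0.937, edgeR) was 0.40 without library 1 and -0.45 without library 2.

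**Figure D3:**
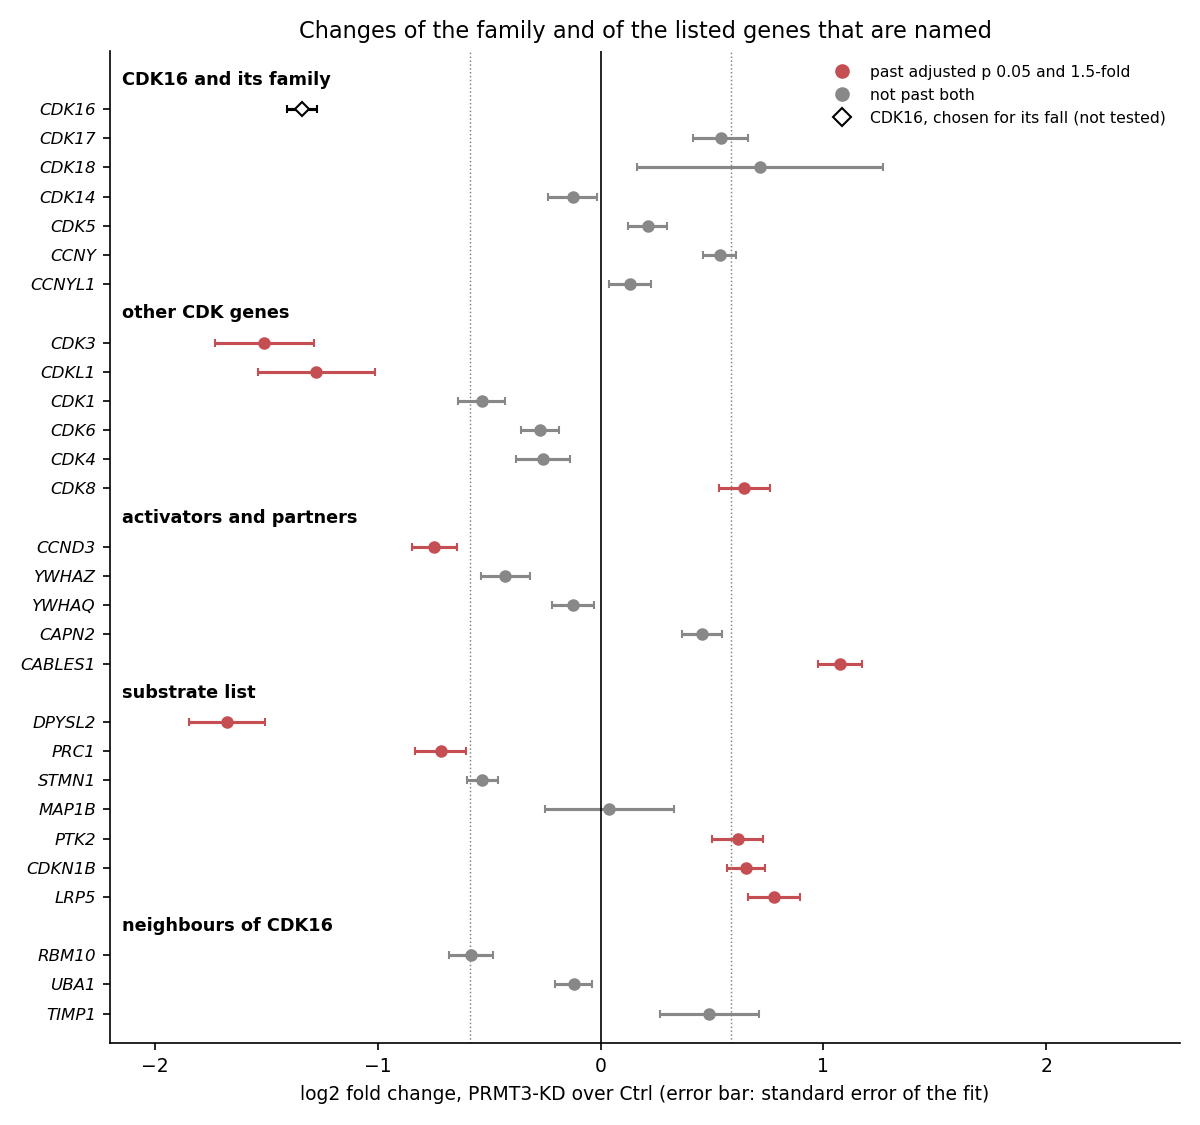
Log2 fold change of PRMT3-KD over Ctrl (horizontal axis, with the standard error of the fit as error bar and dotted lines at 1.5-fold) for the 7 genes and the named genes of the 4 lists. CDK16, an open diamond without a test, lies at -1.34, while the other 6 members lie between -0.13 and 0.72 and none of them is past both thresholds.

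None of the tested genes around CDK16 on chromosome X had a fall as large as its own. CDK16 was picked for its fall, and only 1.22% of all genes tested had a log2 fold change as low. That it lies below its neighbours thus follows largely from this choice, and the part of its position was not tested. Of 16 neighbours, 13 were tested and 0 passed the threshold in edgeR or DESeq2 (10.9% of all genes tested did in edgeR), whereas RBM10 did so with limma-voom with group weights and with library totals only. In edgeR, 3 (ARAF, RBM10 and USP11) of the 13 were lower with an adjusted p under 0.05 at any fold, against 8.91% of all genes tested. UBA1, the ubiquitin-activating enzyme that ends 2731 bases before CDK16, was at 338 and 334 CPM in Ctrl, compared with 293 and 325 CPM after knockdown (log2 fold change -0.12, adjusted p = 0.356, edgeR). The deubiquitinase gene USP11, named after its values were seen because it starts 2868 bases past CDK16, had a log2 fold change of -0.47 (adjusted p = 0.0483, edgeR), under 1.5-fold. No exon of another annotated gene overlaps those of CDK16. RBM10, a splicing regulator, had a log2 fold change of -0.58 (adjusted p = 0.0315, edgeR), just under 1.5-fold, and TIMP1, a metalloproteinase inhibitor, 0.49 (adjusted p = 0.192, edgeR). The median log2 fold change of the 13 genes was -0.26. Without PRMT3-KD library 1, RBM10 had a log2 fold change of -0.68, and without library 2, TIMP1 had 0.76 and USP11 had -0.59.

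**Figure D4:**
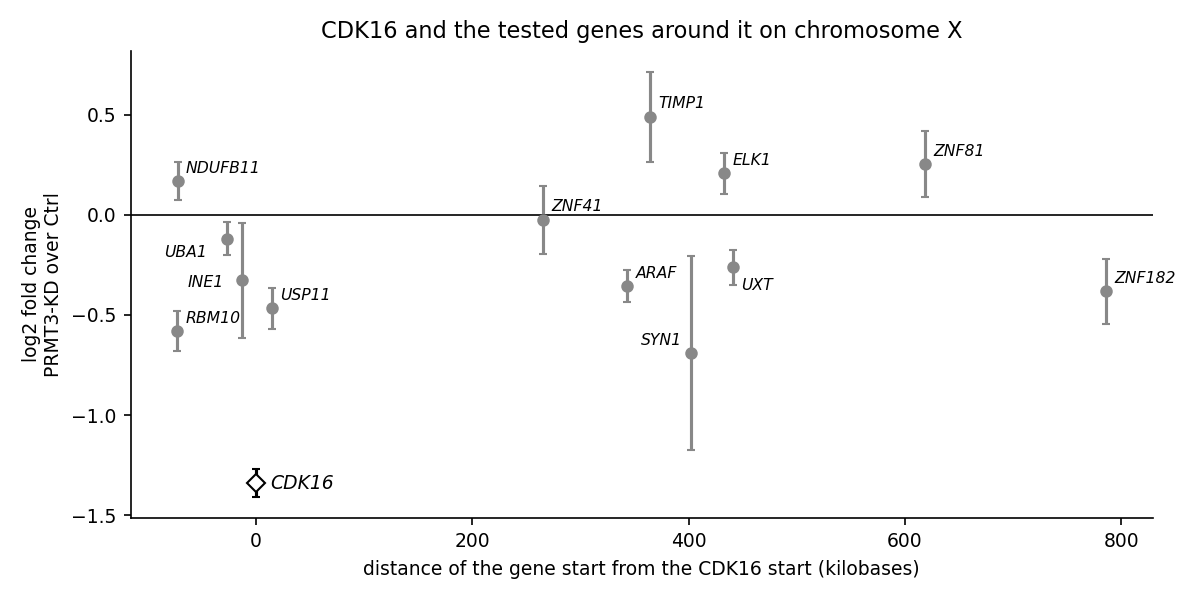
Log2 fold change of PRMT3-KD over Ctrl (vertical axis, error bars are standard errors of the fit) against the distance of each gene's start from that of CDK16 in kilobases (horizontal axis) for CDK16 and the 13 tested neighbours. CDK16, the open diamond at -1.34, was picked for its fall and lies below all its neighbours, which range from -0.69 to 0.49.

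The 3′ UTRs of the members were searched for CAGCTCA, on the transcript strand only. This sequence was picked in earlier work on these same libraries because genes that carry it tended to be lower, so a match in a gene chosen for its fall is no independent evidence. It is in the canonical 3′ UTR of 17.4% of 12748 genes tested, and of 12.8% of those with a 3′ UTR of 1000 to 1500 bases. CDK16 and CDK18 have 1 copy each, and CDK17, CDK14, CDK5, CCNY and CCNYL1 have 0 copies. The copy of CDK16 is in its last exon, 16, at chrX:47089099-47089105, 932 bases into a 3′ UTR of 1229 bases, and that of CDK18 is in exon 16 at chr1:205501263-205501269. Changes like that of CDK16 were sought in log2 CPM relative to each gene's own Ctrl mean, which sets aside its level. The genes nearest to CDK16 were the 5 with the smallest distance over the 4 libraries, out of 9458 other genes whose mean reached 10 CPM. They were ARL2BP, UQCR11, RNF168, BLMH and TMEM214, with distances of 0.0543 to 0.0901 and log2 fold changes of -1.37 to -1.29, and all 5 carry CAGCTCA in the 3′ UTR, RNF168 with 3 copies. ARL2BP was nearest in its change, though not in level, at 81.0 and 78.5 CPM in Ctrl, compared with 30.7 and 31.2 CPM after knockdown. CDK16 was at 173 and 174 CPM in Ctrl. The copies (in capitals, with 8 bases on each side, 5′ to 3′) are shown for CDK16, for its paralog CDK18 and for these 5 genes, the first copy only for RNF168. The copies lie at chr16:57286236-57286242 (ARL2BP, plus strand), chr19:1598123-1598129 (UQCR11, minus strand), chr3:196198514-196198520 (RNF168, minus strand), chr17:28575790-28575796 (BLMH, minus strand) and chr2:27264035-27264041 (TMEM214, plus strand).
CDK16: gaactgacCAGCTCAgcgaggag
CDK18: cccccgccCAGCTCAtcagtctg
ARL2BP: aataggctCAGCTCAtgatgaca
UQCR11: gaaacccaCAGCTCAgcttcagg
RNF168: cttctgcaCAGCTCAgcggtaag
BLMH: atctctaaCAGCTCAggatctct
TMEM214: accccaaaCAGCTCAtctctaaa
The 8 bases on either side differ between the genes. The 5 genes were chosen for a fall of the same size as that of CDK16 in the comparison in which the sequence was picked, so the count is a description, and the part of this sequence in the fall of CDK16 was not tested. CDK18 also carries the sequence, but its counts were few (25 and 78 in the PRMT3-KD libraries). The direction of its change could not be told.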

How the data were processed

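According to the study's methods, TopHat (defaults, hg19) placed the reads and Cufflinks then gave the raw count of each gene that the authors deposited; versions, the gene annotation and the strand setting are not given in the sources used here. The deposited table holds whole-number counts per gene for 4 libraries, and 1 repeated row was removed. Samples were grouped by their titles. Counts were filtered with filterByExpr (minimum count 10, minimum total 15), scaled by TMM (factors 0.955 to 1.02) and tested with edgeR 4.0.16 (glmQLFit, glmQLFTest) in R 4.3.3, with Benjamini-Hochberg adjustment over 13172 genes. Calls took an adjusted p below 0.05 with more than 1.5-fold change. DESeq2 1.42.0 (DESeq2 is also named in the submitters' processing notes) and limma 3.58.1 were alternatives. Ctrl libraries varied less (biological coefficient of variation 0.0107) than PRMT3-KD libraries (0.204), although edgeR fits a single dispersion to both. Depth limits genes with few counts, such as CDK18. Positions, exon lengths and 3′ UTRs came from GENCODE 44 lifted to GRCh37, the hg19 assembly, which matched 99.9% of identifiers. The tests were checked on simulated counts, and a minimum recovery of changed genes was required only with equal spread in both groups. Named genes were all members, PRMT3, the called and the 3 most abundant genes of each list, and the 5 genes nearest to CDK16 in pattern. The members and lists were chosen with earlier results of these data known.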

Additional observations from a re-analysis of the deposited data

How the results depend on the processing

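Under another test, scaling, filter or the replicate block, the log2 fold change of CDK16 lay between -1.34 and -1.33, except -1.37 with library totals only, and between -1.35 and -1.33 with each library left out. CDK16 was picked for a similar fall in both PRMT3-KD libraries, so its steadiness with a library left out follows from that choice. Its share of the PCTAIRE sum changed by -24.3 percentage points, by -21.6 with canonical transcript lengths (chosen after seeing the data) and by -26.2 to -22.5 with a library left out, and the share of CCNY by 6.59 points, or 5.65 to 7.53. Of all genes tested, 1441 passed the threshold. The count was 2278 with no fold threshold, 512 at 2-fold, 65 by glmTreat against 1.5-fold and 0 to 3066 with a library left out, and a group left with 1 library is then assumed to vary like the other. Of the members other than CDK16, 1 passed with no fold threshold, and 0 to 1 with a library left out. With no fold threshold, 6 of 19 other CDK genes, 5 of 17 activators, 7 of 14 substrates and 3 of 13 neighbours passed. The share was 17.3% for all genes tested. At 2-fold, 2 other CDK genes (CDK3 and CDKL1, both lower), 1 activator, 1 substrate and 0 neighbours passed, against 512 of 13172 genes tested. By glmTreat, 0 of the other CDK genes, activators, substrates and neighbours did. With a library left out, the counts were 0 to 5 other CDK genes, 0 to 3 activators, 0 to 6 substrates and 0 to 3 neighbours. Among the neighbours, 1 passed with limma-voom with group weights and 1 with library totals only. CDK18 had a log2 fold change of 1.27 without PRMT3-KD library 1 and reversed to -0.22 without library 2. MAP1B, within its error, reversed to -0.019 with limma-voom with group weights, -0.0059 with library totals only and -0.022 with the replicate block, and to -0.45 without PRMT3-KD library 2, with 0.40 without library 1. The cause was not tested.

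The labels do not say whether replicates of the same number were paired. The differences between replicates 1 and 2 in Ctrl and in PRMT3-KD had a correlation of 0.0222 across genes. This cannot decide on a pairing, because the Ctrl libraries varied so little (biological coefficient of variation 0.0107, against 0.204 in PRMT3-KD). With the replicate block, 1464 genes passed, 1274 of them among the 1441, and CDK16 had a log2 fold change of -1.34.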
